A study of Mus musculus with 2 samples.

Results

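The 10 genes described here encode the receptor chains for IL-6 and GM-CSF, the cytokines in which the cells were grown, together with the JAK kinases and STAT transcription factors that carry their signals. They were taken by name, and every probe set that the platform annotation gives to Il6ra, Il6st, Csf2ra, Csf2rb, Csf2rb2, Jak1, Jak2, Stat3, Stat5a or Stat5b was read. This gave 25 of the 45037 probe sets that are not Affymetrix controls, and 10 of the 18193 genes with a probe set of their own. Fresh marrow of C57BL/6 mice was transfected with control siRNA or with silncMDSC, the siRNA against lnc-C/EBPβ, a long non-coding RNA (lncMDSC in the labels), and both cultures then spent 4 days in medium with GM-CSF and IL-6. Bone marrow cells become myeloid-derived suppressor cells (MDSCs) under these cytokines, and the comparison asks whether the genes of cytokine sensing differ when lnc-C/EBPβ is targeted. Each siRNA was measured on 1 Affymetrix array, so no difference has a replicate check, no test was possible and no p is given. The RNA came from whole cultures, in which fewer cells of a type and less RNA per cell cannot be told apart. No probe set is named here for lnc-C/EBPβ, so its knockdown was not analysed here.

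IL-6 binds the IL-6 receptor α chain (Il6ra) and then gp130 (Il6st), whose bound JAK kinases phosphorylate STAT3. GM-CSF binds its own α chain (Csf2ra) and then the common β chain (Csf2rb), which it shares with IL-3 and IL-5 and which signals mainly through JAK2 and STAT5A or STAT5B. Mice have a second β chain, Csf2rb2, that serves IL-3. In myeloid precursors the GM-CSF arm supports growth and survival, and STAT3 is known as a driver of MDSC expansion.

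All 10 genes were above the floor, which is the median intensity of all probe sets on both arrays, 78.4, and which the brighter of the 2 arrays had to reach. Where a gene had several probe sets, the brightest over both arrays stood for it, and differences are log2(intensity + 1) on the silncMDSC array minus that on the control array. The GM-CSF receptor chains were close to level between the cultures, Il6ra was higher on both of its probe sets, Il6st differed in direction between its own, and Jak2 and Stat5b were about 1.22-fold higher in silncMDSC. The number of members at least 1.5-fold apart was 0, where 0.948% of the 11920 genes above the floor were that far up in silncMDSC and 1.42% that far down. At a lower threshold of 0.32 on the log2 scale the count was also 0, where 4.45% of all genes lay past it upwards and 6.95% downwards. Of the 10 genes, 6 were higher and 4 lower, with differences from -0.10 to 0.28 and a median of 0.09. The count of higher members moved with the processing: it was 8 with a loess trend on level removed or after quantile normalization, 9 where a gene's probe sets were averaged, and 5 of the 9 members left with the floor at the 75th percentile. The median over all genes above the floor was -0.002, with a robust SD (scaled median absolute deviation) of 0.18, and 49.3% of them were higher and 50.7% lower.

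**Figure D1:**
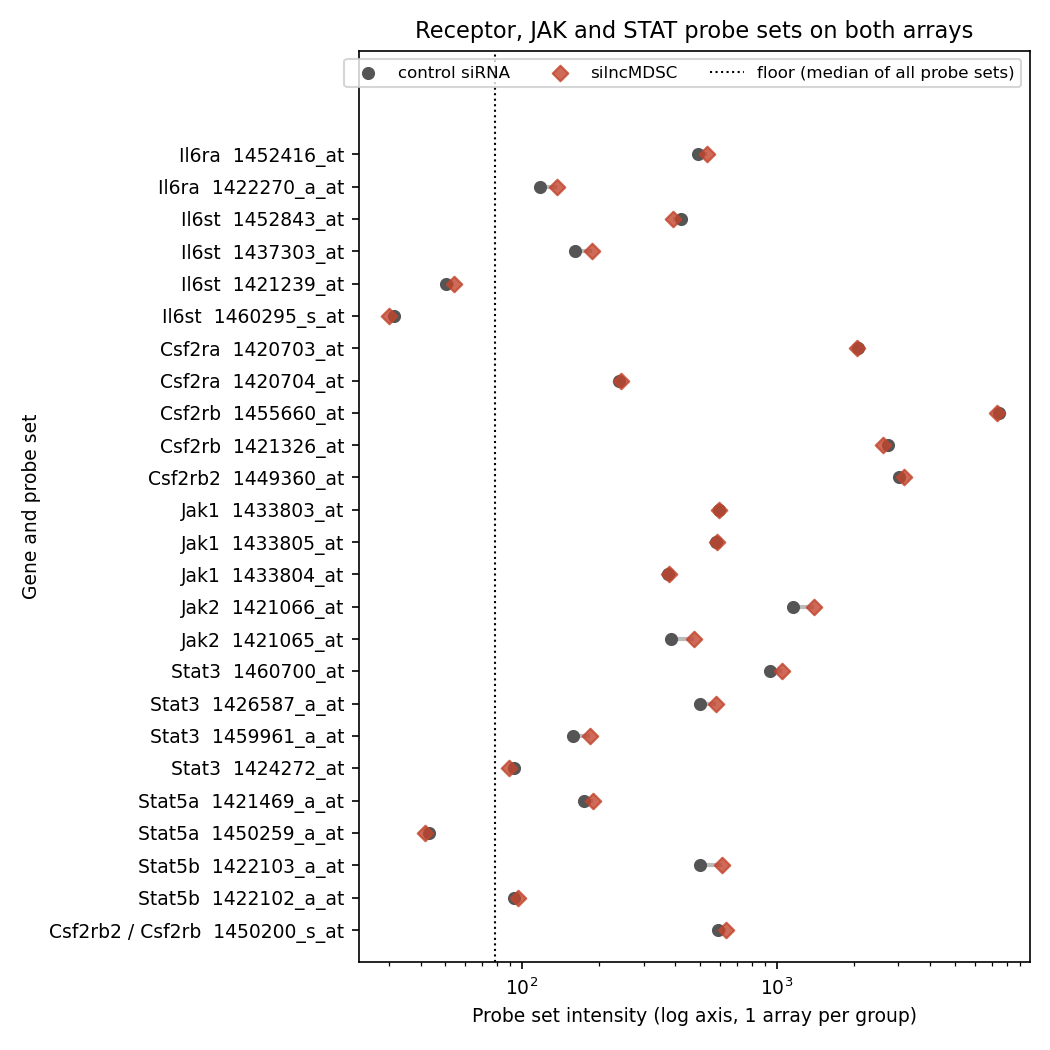
Intensity (x axis, log scale) of each of the 25 probe sets on the control siRNA array (grey circles) and the silncMDSC array (red diamonds), with 1 array per group and the floor of 78.4 as a dotted line. The symbols of Jak2 and of Stat5b 1422103_a_at stand apart, those of Jak1 and Csf2rb nearly cover each other, and 3 probe sets lie below the floor.

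The IL-6 receptor genes gave a mixed picture. Il6ra, the chain that binds IL-6, had an intensity of 489.9 in the control culture and 531.1 in the silncMDSC culture with probe set 1452416_at, a log2 difference of 0.12. Its other probe set, 1422270_a_at, had 117.5 in control and 137.8 in silncMDSC, a difference of 0.23. Both readings of this gene were thus higher in silncMDSC, the dimmer one by more. Such a size was common: 23.9% of all genes above the floor were at least as far above control as 1452416_at. In either direction 50.9% were at least as far apart.

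Il6st, the signalling chain gp130, was read by 4 probe sets that did not point one way. Probe set 1452843_at, the brightest, had 422.4 in control and 392.8 in silncMDSC, a difference of -0.10, and it was the lowest of the members. Probe set 1437303_at had 161.5 in control and 189.1 in silncMDSC, a difference of 0.23. The other 2 were below the floor on both arrays, with 50.6 and 54.3 on 1421239_at and 31.4 and 30.2 on 1460295_s_at. The gap of 0.33 between the 2 readings above the floor was larger than the difference of either, and the mean over all 4 probe sets was 0.04, so no direction is given for Il6st.

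The GM-CSF receptor genes were nearly level. Csf2ra, the chain that binds GM-CSF, had 2076 in control and 2057 in silncMDSC on 1420703_at (-0.01) and 239.3 and 244.3 on 1420704_at (0.03). Csf2rb, the common β chain, had 7461 in control and 7332 in silncMDSC on 1455660_at (-0.03) and 2722 and 2618 on 1421326_at (-0.06). Its brightest probe set lies near the top of the intensity scale, which ended at 13983 in control and 13880 in silncMDSC. Whether a difference is compressed there was not tested. Of all genes above the floor, 93.4% were at least as far apart as Csf2ra and 87.9% at least as far apart as Csf2rb. The sign of Csf2ra turned when a loess trend was removed, after quantile normalization and with the mean of its probe sets.

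Csf2rb2, the IL-3 type β chain, had 3008 in control and 3156 in silncMDSC on 1449360_at, a difference of 0.07. A further probe set, 1450200_s_at, is annotated to both Csf2rb2 and Csf2rb and was credited to neither. It had 586.2 in control and 634.2 in silncMDSC (0.11), above the differences of the 3 probe sets that the annotation gives to either gene alone. The 2 β chain genes are close relatives and lie near each other, with 1 annotated gene between them on chromosome 15 in the RefSeq table of GRCm38.p6. Probe sequences were not used here, so some signal of one could come from the other.

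The kinases differed from each other. Jak1, which gp130 uses, had 591.0 in control and 590.8 in silncMDSC on 1433803_at, 575.5 and 583.0 on 1433805_at, and 375.3 and 378.2 on 1433804_at. The differences of these 3 probe sets were -0.001, 0.02 and 0.01, so Jak1 was level on all of them, and 99.7% of genes were at least as far apart. Its sign, too, turned with the trend removed, with quantile normalization and with the mean of probe sets.

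Jak2, which the common β chain uses, was higher on both of its probe sets. It had 1155 in control and 1404 in silncMDSC on 1421066_at, a difference of 0.28 or 1.22-fold. On 1421065_at it had 385.0 and 472.3, a difference of 0.29 or 1.23-fold. The 2 readings differed by 0.01, against a median spread of 0.14 among the 4845 genes with at least 2 probe sets above the floor. Of all genes above the floor, 6.00% were at least as far above control as Jak2, and 15.2% at least as far apart in either direction. The difference of Jak2 was 1.60 times the robust SD of these genes. Over the 8 other settings that recompute it, the difference of Jak2 ran from 0.28 to 0.31.

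**Figure D2:**
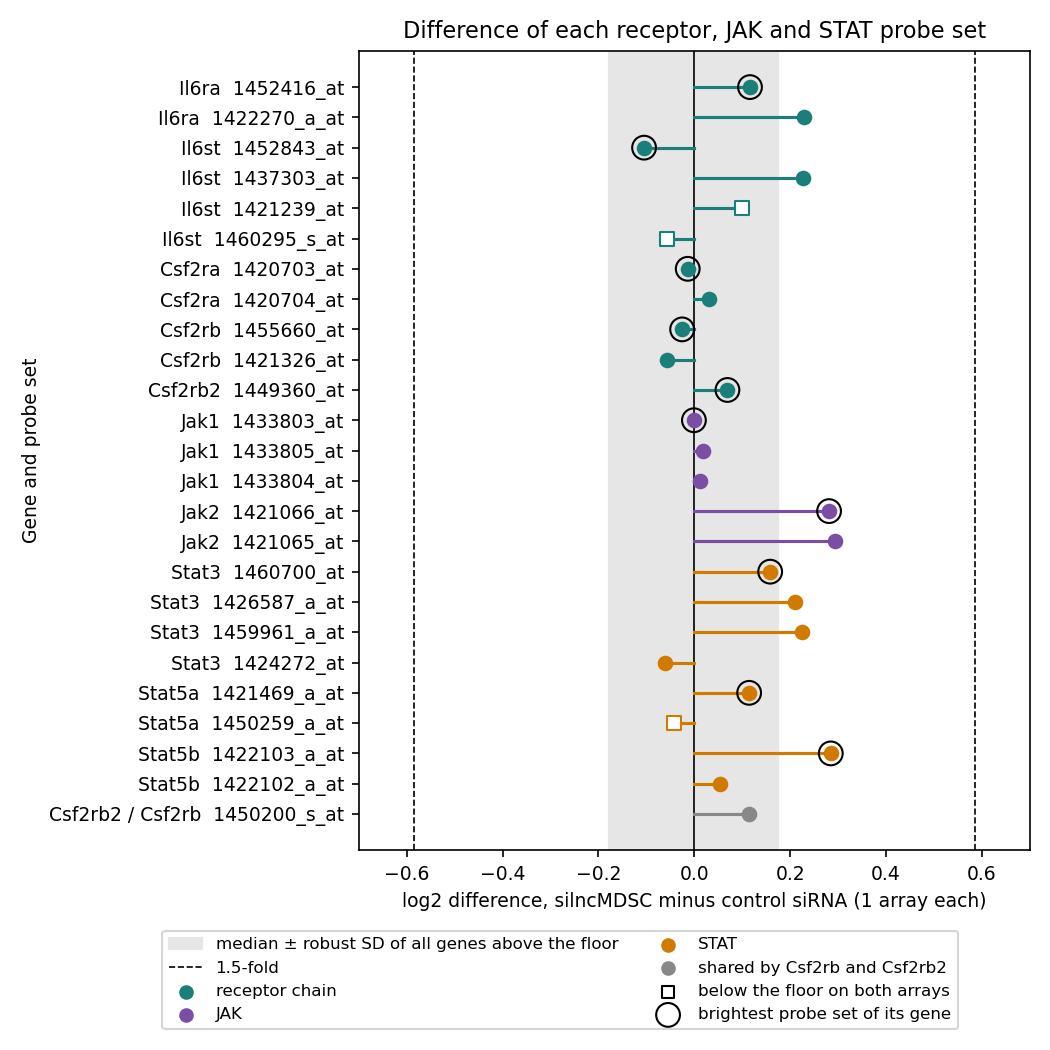
Difference between the arrays (x axis, log2, silncMDSC minus control siRNA, 1 array each) of each of the 25 probe sets, coloured by role, with filled circles above the floor, open squares below it and a black ring around the brightest probe set of a gene. The grey band is the median ± robust SD of all genes (-0.002 ± 0.18), the dashed lines mark 1.5-fold, and the probe sets of Jak2 lie at 0.28 and 0.29.

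The STAT genes were higher by unequal amounts. Stat3, the main STAT of IL-6, had 938.3 in control and 1047 in silncMDSC on 1460700_at, a difference of 0.16. It had 498.4 and 576.4 on 1426587_a_at (0.21) and 158.6 and 185.6 on 1459961_a_at (0.22). The dimmest probe set, 1424272_at, went the other way, with 93.3 in control and 89.3 in silncMDSC (-0.06). Thus 3 of 4 probe sets of Stat3 were higher. Of all genes, 17.1% were at least as far above control as its brightest one, and 37.9% at least as far apart in either direction.

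Stat5b, a STAT of the GM-CSF arm, was the member farthest above control on its brightest probe set, though Jak2 led with a pseudocount of 16, and Jak2 and Il6ra both led it with the mean of all probe sets. It had 499.6 in control and 608.9 in silncMDSC on 1422103_a_at, a difference of 0.28 or 1.22-fold. By that measure 5.85% of all genes were at least as far above control, and 14.8% at least as far apart in either direction. The dimmer probe set of Stat5b, 1422102_a_at, had 92.8 and 96.5, a difference of 0.05. The mean of its probe sets was 0.17, and the remaining settings gave up to 0.33 (quantile normalization), the one value of any member past 0.32. The size for Stat5b therefore rests on its brighter probe set.

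Stat5a, its close relative, had 175.2 in control and 189.7 in silncMDSC on 1421469_a_at (0.11), while 1450259_a_at was below the floor with 43.0 and 41.8 (-0.04). At least as far above control as 1421469_a_at were 24.2% of all genes, and 51.6% were at least as far apart in either direction. Stat5b, Stat5a and Stat3 lie side by side, with 0 annotated genes between neighbours on chromosome 11 in the RefSeq table. The annotation gives none of their probe sets to more than 1 of them, but STAT5A and STAT5B messages are alike, and whether their probe sets also read each other's message was not tested.

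Read by role, the 5 receptor chains had a median of -0.01 (from -0.10 to 0.12), with 2 of them higher, or 3 under the scalings that turned Csf2ra and 4 with the mean of all probe sets. The 5 kinases and STATs had a median of 0.16 (from -0.001 to 0.28), with 4 of them higher. Read by cytokine, the IL-6 arm (Il6ra, Il6st, Jak1, Stat3) had a median of 0.06 and the GM-CSF arm (Csf2ra, Csf2rb, Jak2, Stat5a, Stat5b) a median of 0.11. Each gene was placed in a single arm, and the medians depend on that placement. Jak2 (0.28) was counted for GM-CSF only, and the IL-6 arm with Jak2 added was not computed, so no contrast between the arms is drawn. On the brightest probe sets each arm held genes on both sides of 0. In the IL-6 arm the lower ones were Il6st, for which no direction is given, and Jak1, which was level. With the mean of all probe sets Il6st (0.04) and Jak1 (0.01) were above 0. Of the 24 probe sets annotated to a single member, 21 were above the floor, 15 of them higher and 6 lower, where 48.2% of all such probe sets were higher and 51.7% lower. Of these 21, 7 were higher by over 0.2 and 0 lower by over 0.2, against 11.7% and 16.8% of all. These 7 came from 5 genes and are not independent readings. The cut of 0.2 served this count only and was not one of the fold thresholds set for the other counts. The highest of the 21 was at 0.29, short of the lower fold threshold of 0.32, so none of them passed that one. The contrast with all probe sets therefore depends on the cut.

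**Figure D3:**
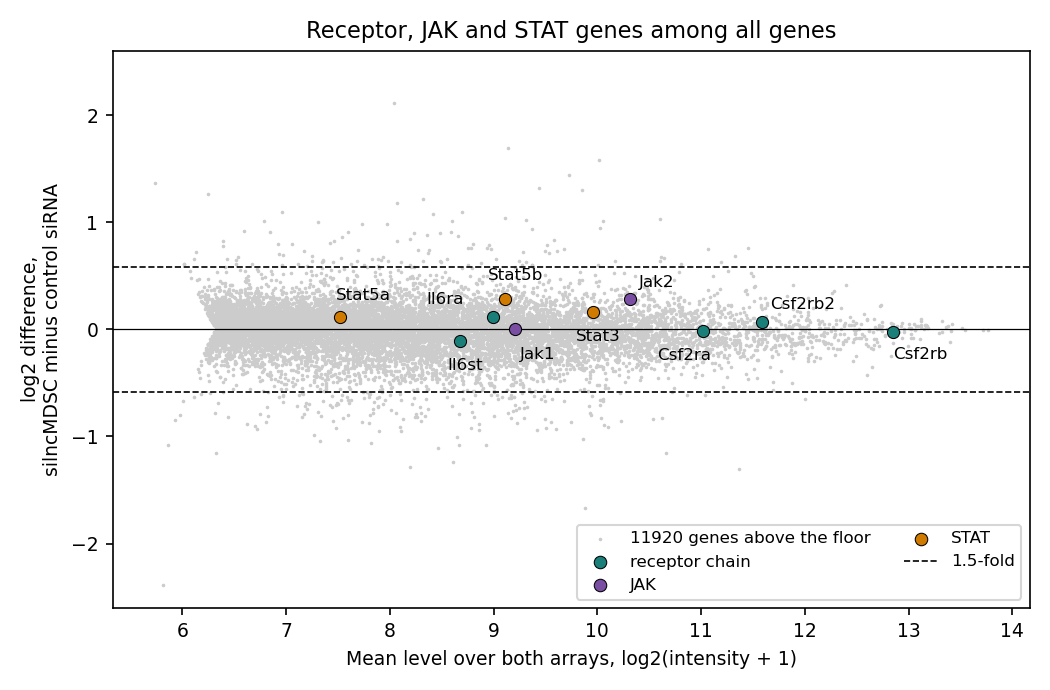
Mean log2(intensity + 1) of the arrays (x axis) and log2 difference between them (y axis, silncMDSC minus control siRNA) for the 11920 genes above the floor (grey), with receptor chains in green, JAKs in purple and STATs in orange. All 10 members lie between the dashed 1.5-fold lines, and Stat5b and Jak2 (0.28 each) are the highest of them.

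The other JAK and STAT genes were higher as well. All 5 that were read were above the floor and higher, 0 of them by 1.5-fold, with a median of 0.23. Stat4, the STAT of IL-12 signalling, had 192.0 in control and 278.3 in silncMDSC, a difference of 0.53. Jak3 (0.24), Stat2 (0.23) and Tyk2 (0.23) followed, and Stat6, the STAT of IL-4, was at 0.09. With the members, 9 of 10 JAK and STAT genes were higher, with a median of 0.23. This grouping was made after the values were seen. The exception was Jak1, at -0.001, and all 10 were higher where its sign turned.

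The genes around this pathway showed no common direction. The 8 lists of pathway genes held 104 genes, of which 87 were above the floor, 44 of them higher and 43 lower, with a median of 0.0004. Of the 87, Lifr was past 1.5-fold upwards and Il6, Fos, Id1 and Myc were past it downwards. Together that is 5.75%, where 2.37% of all genes were that far apart in either direction.

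Among the cytokines that use these receptors, 6 of 11 reached the floor, and 0 of these were past 1.5-fold upwards and 1 downwards. Il6 itself went from 302.5 in control to 182.9 in silncMDSC, 1.65-fold lower. Oncostatin M (Osm), which also acts through gp130, was at -0.52, Clcf1 at 0.20 and Csf2, which encodes GM-CSF, at -0.11. Il3 and Il5, the other ligands of the common β chain, did not reach the floor on either array. The cultures were given GM-CSF and IL-6, so these messages are not the amount of cytokine in the medium.

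Other receptor chains differed little. Of 10 chains that use gp130 or the common β chain or are more loosely related to them, 5 were above the floor. Their median was 0.15 (-0.018 with no floor), with 1 past 1.5-fold upwards and 0 downwards. The list includes looser relatives such as Crlf2, so this median does not describe users of gp130 or the common β chain alone. Lifr, the LIF receptor that pairs with gp130, had 51.4 in control and 78.9 in silncMDSC (1.52-fold higher), but it was below the floor in control and barely reached it in silncMDSC. Crlf2, the TSLP receptor chain, was at 0.17, Il3ra, the IL-3 receptor α chain, at 0.15, and Il27ra at -0.12. Of 18 further receptors that use JAKs, 14 were above the floor and 0 were 1.5-fold apart, with a median of 0.03. The farthest were Il2ra (0.39, but -0.07 on its other probe set), Ifngr1 (0.34), Il7r (-0.31) and Il13ra1 (0.24, but from -0.06 to 0.09 on its 3 other probe sets).

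Negative regulators showed no common direction. All 20 were above the floor, 0 were 1.5-fold apart, 8 were higher and 12 lower, where 50.7% of all genes were lower, and the median was -0.03 (-0.01 with the floor at the 75th percentile). Socs1, a JAK inhibitor, had 199.4 in control and 138.7 in silncMDSC, a difference of -0.52. The SUMO ligase Pias2 was at -0.36, the phosphatase Ptpn1 at -0.23 and Socs5 at 0.17. Adapters and kinases that sit at these receptors had 13 of 15 above the floor, 0 of them 1.5-fold apart, and a median of 0.11, with Gab2 (0.28), Pik3cg (0.23), Grb2 (0.20) and Sos1 (-0.18) the farthest. That median was 0.01 without the _x_at and _s_at probe sets, which can match several transcripts, and 0.04 with the mean of all probe sets, and the other probe sets read -0.07 and 0.07 for Gab2 and -0.03 for Grb2. Genes of receptor shedding, which releases soluble IL-6 receptor, had 4 of 5 above the floor, 0 of them 1.5-fold apart, with Rhbdf1 at 0.11, Rhbdf2 at -0.09, Adam17 at -0.02 and Adam10 at 0.01.

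Transcripts that STAT3 or STAT5 can induce went both ways, with more of them lower than higher. All 20 listed reached the floor, with 0 past 1.5-fold upwards and 3 downwards, against 0.948% and 1.42% of all genes. By any amount 7 were higher and 13 lower, against 49.3% and 50.7% of all genes, and the median was -0.14. The feedback inhibitors Cish, Socs1, Socs2 and Socs3 were counted with the negative regulators and not in this list. Cish was at -0.07, Socs1 at -0.52 and Socs2 at 0.11 (from -0.05 to 0.05 on its 3 other probe sets). Socs3 was at -0.08 (-0.26 and -0.22 on its 2 other probe sets). Fos went from 2098 in control to 1181 in silncMDSC, 1.78-fold lower. Id1, an inhibitor of helix-loop-helix factors, had 1401 and 789.1, 1.77-fold lower, and Myc had 740.7 and 429.7, 1.72-fold lower. Bcl6, a transcriptional repressor, was the farthest above control (0.46). These genes answer to many other signals, and the activity of STAT proteins, which depends on phosphorylation, was not measured on these arrays.

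**Figure D4:**
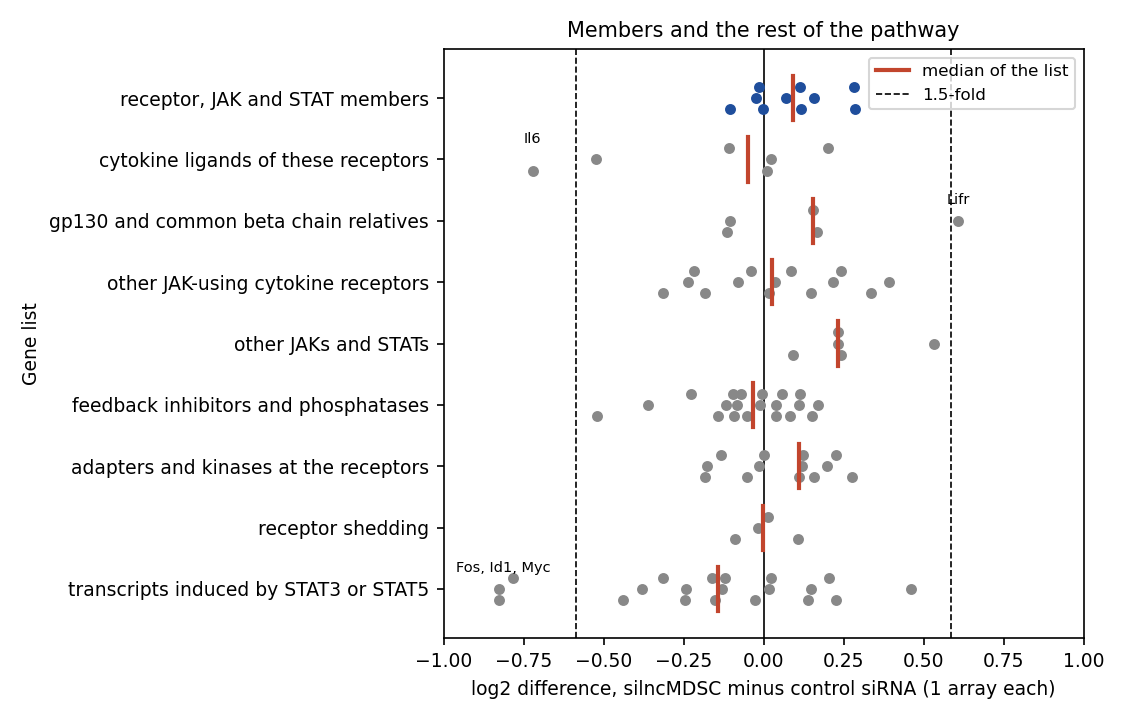
Difference between the arrays (x axis, log2, silncMDSC minus control siRNA, 1 array each) of each gene above the floor (points) in the 10 members (blue) and in 8 lists of related genes (grey), with the median of each list as a red bar and 1.5-fold as dashed lines. The medians of the members (0.09) and of the other JAKs and STATs (0.23) lie above 0, and that of the STAT-induced transcripts (-0.14) lies below it.

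Markers of the cell types in the cultures also differed between the arrays. All 9 neutrophil markers were above the floor and 0 were 1.5-fold apart, with a summed intensity of 65177 in control and 62879 in silncMDSC. The 5 monocyte markers read had sums of 5773 and 5749 and a median of 0.02. Of these, 3 were higher, Ccr2 (0.34) and Cx3cr1 (0.37, below the floor in control) the farthest, and 2 were lower, with Vcan 2.01-fold lower. All 8 dendritic cell markers were higher, 4 of them by at least 1.5-fold (Itgax, Ccr7, Ciita and H2-Eb1), with sums of 16433 in control and 22325 in silncMDSC. Among all genes above the floor, 49.3% were higher by any amount and 0.948% by at least 1.5-fold. The size depended on the probe set for some dendritic cell markers. Other probe sets read 0.09 and 0.38 for Ciita, 0.82 and 0.87 for H2-Ab1, and from 0.49 to 0.79 for H2-Aa. Of 8 macrophage markers, 3 (Mrc1, Msr1 and Apoe) were at least 1.5-fold lower, against 1.42% of all genes, with sums of 14624 and 12909. The rest were smaller differences: Csf1r was higher (0.09), Adgre1 (-0.001) and C1qa (-0.03) were nearly level, and C1qb (-0.25) and C1qc (-0.23) were lower. Of 5 eosinophil markers, 4 were above the floor and higher, with sums of 3123 and 4350. Mast cell and basophil markers, 6 of 6 above the floor, summed to 6766 and 7311. T and NK cell markers summed to 1372 and 1631, with Cd3g and Cd2 below the floor and Klrd1 1.88-fold higher. B cell markers, 3 of 3 above the floor, summed to 674.3 and 648.0. Erythroid markers summed to 283.8 and 257.4, with Hba-a1 and Klf1 below the floor. The part of these cell types in the values of Jak2, Stat5b and the other members was not tested.

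The promoters of the members shared neither of 2 motifs searched. RefSeq windows of GRCm38.p6, from 250 bases before to 50 bases after a gene's start, were at hand for 9 of the 10 members (11 windows; none for Csf2rb). The STAT motif TTCNNNGAA, which reads the same on both strands, was found in 1 of the 11 windows, against 8.30% of all 32851 windows. The C/EBP motif TTGCNNAA, searched on both strands, was found in 0 of the 11 windows, against 10.8% of all windows. No match says only that these letters are not in these windows. The match was in Csf2rb2, 15 to 7 bases before its start. It is shown because STAT binding to such a motif is the last step of the pathway described here, with the motif in capitals and 10 bases on either side, a stretch at chr15:78305718-78305746 on the minus strand.

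Csf2rb2: gtgtccacaaTTCTGAGAAgcaagcaaag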

How the data were processed

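Total RNA (6 µg per the labels) of 1 culture for each siRNA was hybridised by the authors to the Affymetrix Mouse Genome 430 2.0 array. The authors deposited 1 linear intensity per probe set and array. RMA is named in the submitters' processing notes, without a version. Since RMA output is normally on a log2 scale, a step back to linear values, with a lowest value of 1 on both arrays, was added in a way that the labels and methods do not describe. Array medians were 78.0 and 79.0, and Affymetrix hybridisation spikes were 0.11 (log2) higher on the silncMDSC array. The number of arrays limits the precision.

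The study's methods name limma, which needs replicates, so only sizes are given. Of 45101 probe sets, 64 Affymetrix controls were left out. Of the rest, 34945 had 1 gene symbol in the platform annotation, 932 several and 9160 none, and genes were named only from the first kind. The 10 members matched the RefSeq table (GRCm38.p6) by Entrez identifier. Array positions carry no build. Differences were computed on log2(intensity + 1) with Python 3.11.15, pandas 2.3.3 and statsmodels 0.14.6 (loess, span 0.3). The steps were tested on simulated data, with folds larger than that of any member. The members and gene lists were chosen with earlier results of these data known. Named are all members, all macrophage markers, list genes at least 1.5-fold apart, and up to 4 genes of each list with the largest differences. Also named are Cish, Socs2, Socs3, H2-Aa and H2-Ab1. No gene is named for a like pattern, since 2 arrays give 1 difference per gene. Each value was recomputed under up to 10 alternatives in scaling, pseudocount, floor, choice of probe set and threshold.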

Additional observations from a re-analysis of the deposited data

How the results depend on the processing

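The counts of members at least 1.5-fold higher and lower were 0 under all 10 alternatives, which included a lower and a higher fold threshold. The median of the members ran from 0.06 to 0.11. A value was taken as moved when it shifted by more than 0.14 (log2), the robust SD of the difference between the 2 brightest probe sets of a gene, since there are no replicates. Of 171 recomputed values, 168 moved by less than that, and the other 3 follow from which genes or probe sets enter. With no floor, which adds 3 dim genes, the median of the relatives of gp130 and the common β chain was -0.018. With the floor at the 75th percentile the median of the cytokine ligands was -0.52. With the mean of all probe sets Il6st was at 0.04. The median of the other JAK-using receptors turned to -0.03 with that mean. With the floor at the 75th percentile Stat5a was no longer counted. Many of the 171 values could not change. The floor settings, and leaving out _x_at and _s_at probe sets, returned unchanged every member difference that they kept. Counts at the higher fold threshold were fixed once those at 1.5-fold were 0. No paired analysis was possible because each siRNA has 1 array. Dim probe sets near the floor, such as those of Lifr, Stat3 1424272_at and Stat5b 1422102_a_at, limit what can be read from their differences.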
